A study of Arabidopsis thaliana with 6 samples.

Results

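GID1A (AT3G05120) and GID1C (AT5G27320) encode gibberellin receptors of Arabidopsis thaliana. They were followed through the probe sets annotated to exactly 1 of the 2 genes, which gave 1 probe set for GID1A and 1 for GID1C among 22746 plant probe sets, or 2 genes of the 13286 that single-gene probe sets name. RNA came from whole seedlings of the esd7-1 mutant, named for its mutant allele of the gene for the catalytic subunit of DNA polymerase epsilon (ESD7), and from seedlings of its wild type, Landsberg erecta (Ler). Plants of both genotypes grew in pots in short days without any further treatment and were 14 days old when they were collected, 8 h after dawn. Each genotype had 3 Affymetrix arrays, each made from an independent pool of plants. The comparison asks whether the receptor transcripts differ between an early-flowering mutant and its wild type. No probe set named ESD7 in the annotation used here, so the mutant labels were not checked against its level.

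Gibberellin is a growth hormone that is bound by soluble GID1 receptors. The hormone-bound receptor takes hold of DELLA proteins, which repress growth, and an F-box protein then marks the DELLA for destruction. Arabidopsis has GID1A, GID1B and GID1C, of which GID1A and GID1C are the more closely related, and plants that lack all of them are extreme dwarfs. Receptor transcripts are under feedback, since DELLA proteins bind the GID1A and GID1B promoters and raise their transcription. Gibberellin also promotes flowering in Arabidopsis, most visibly in short days.

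Every esd7-1 array read lower than every Ler array for GID1A, but the difference did not pass the test across all probe sets, and GID1C showed no such separation. The log2 expression values of GID1A were 7.19, 7.02 and 6.64 on esd7-1 replicates 1, 2 and 3, and 7.50, 7.78 and 7.37 on Ler replicates 1, 2 and 3. The highest mutant array lay 0.18 below the lowest wild-type array, so the groups did not overlap. All 3 mutant arrays lay below all 3 wild-type arrays for 1295 of 22746 probe sets, or 5.69%, so that separation alone does not set GID1A apart. The mutant mean was 6.95 ± 0.28 and the wild-type mean 7.55 ± 0.21 (SD, n = 3).

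On the log2 scale GID1A differed by -0.60 ± 0.18 (limma SE), esd7-1 minus Ler, a 1.52-fold lower value in the mutant. Its 95% interval ran from 1.13-fold to 2.04-fold lower. The adjusted p in limma over all probe sets was 0.806. No probe set passed limma at an adjusted p of 0.05 (0 of 22746, 0%), while 1315 (5.78%) had an unadjusted p under 0.05. The unadjusted limma p of GID1A was 0.0133, which ranked 366 among all probe sets, and 794 probe sets (3.49%) read lower with an unadjusted p under 0.05. The two-sided exact permutation p over the 6 arrays was 0.1, the smallest that 3 arrays against 3 allow. By size, 1.02% of all probe sets had a log2 difference as low as that of GID1A or lower.

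GID1C was nearly level between the genotypes. Its log2 values were 4.75, 5.28 and 5.47 on esd7-1 replicates 1, 2 and 3, and 4.75, 5.25 and 5.18 on Ler replicates 1, 2 and 3. The groups overlapped throughout, and the low value in each genotype was that of replicate 1. The mutant mean was 5.17 ± 0.37 and the wild-type mean 5.06 ± 0.27 (SD, n = 3). The log2 difference was 0.11, with a 95% interval from -0.43 to 0.64, and limma gave an adjusted p of 0.929. The exact permutation p was 0.6. The interval spans 0, so neither a moderate rise nor a moderate fall of GID1C could be told from no difference with these arrays.

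**Figure D1:**
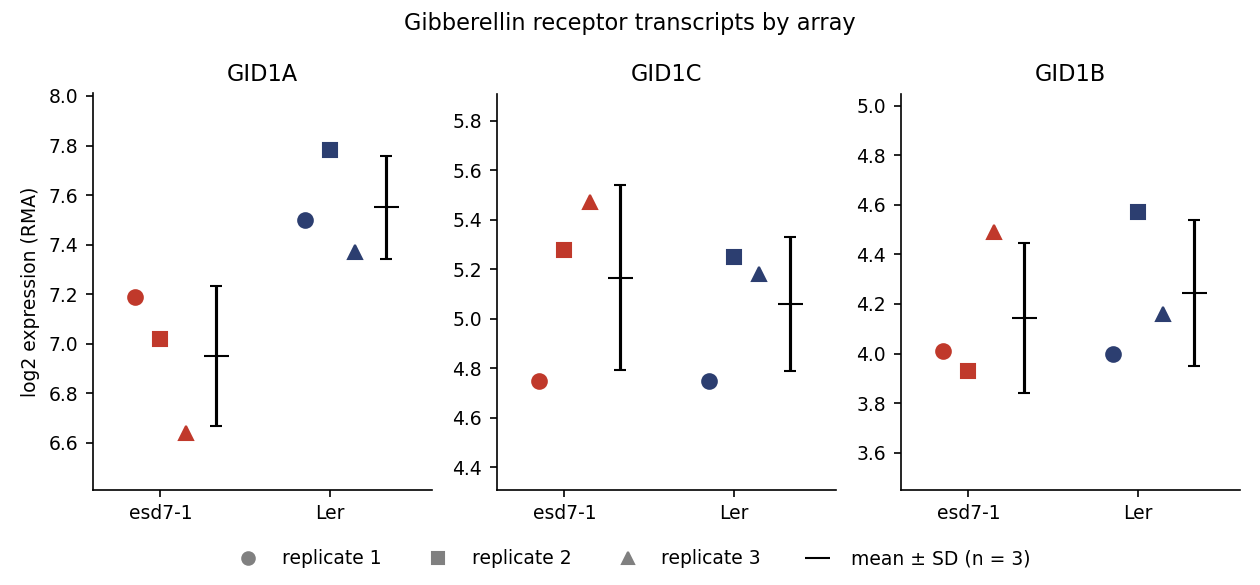
Log2 expression (vertical axes, each spanning the same number of log2 units) of GID1A, GID1C and GID1B on each array, with esd7-1 in red, Ler in blue and the replicate number as the symbol; black marks are the mean ± SD of 3 arrays. GID1A is the 1 receptor whose genotypes do not overlap, GID1C is at 4.75 on both replicates 1, and GID1B is highest on esd7-1 replicate 3 and Ler replicate 2.

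GID1B, the receptor outside the pair, had values of 4.01, 3.93 and 4.49 on the 3 mutant arrays and 4.00, 4.57 and 4.16 on the wild-type arrays. Its log2 difference was -0.10, limma gave an adjusted p of 0.929, and the genotypes overlapped. Of the 3 receptors, 0 passed and 1, GID1A, had values that did not overlap, where 5.69% of all probe sets had every mutant array lower and 5.64% every mutant array higher.

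Whether GID1A and GID1C differed in their response was tested on the difference between them within each array, in which a fixed effect of each probe set cancels. The log2 value of GID1A minus that of GID1C was 2.44, 1.74 and 1.17 on the esd7-1 arrays and 2.75, 2.53 and 2.19 on the Ler arrays. The highest mutant value lay inside the wild-type range. The difference between the genotype means was -0.71, with a two-sided exact permutation p of 0.2 where 0.1 is the smallest possible. With 3 arrays against 3 this permutation test cannot reach a p of 0.05, and the groups also overlapped. Whether the receptors responded differently could not be settled. The value was -0.40 without esd7-1 replicate 3, -0.38 without both esd7-1 replicate 3 and Ler replicate 2, and -0.15 with limma array weights. Those weights were 3.71, 0.63 and 0.25 on esd7-1 replicates 1, 2 and 3, so replicate 1 dominated the weighted mutant mean. On Ler replicates 1, 2 and 3 they were 1.41, 0.55 and 2.19. Across the 6 arrays the values of GID1A and GID1C had a Pearson r of -0.41 (exact permutation p = 0.414) and a Spearman rho of -0.55 (exact permutation p = 0.272). This was the 1 relation tested, so adjustment left the p at 0.414. Without esd7-1 replicate 3 and Ler replicate 2, the arrays farthest from the median of GID1A, r was -0.51. Over the 3 arrays of each genotype r was -0.89 in esd7-1 and 0.33 in Ler, so the sign was not shared. On deviations from genotype means r was -0.46.

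The arrays were not alike beyond genotype. The bacterial poly-A control RNAs averaged 6.53 on esd7-1 replicate 3 and 7.29 on Ler replicate 2, against 5.74 to 5.89 on the others. On these 2 arrays the 3′ minus 5′ difference of the actin, GAPDH and ubiquitin controls was 0.20 and 0.26, against 0.63 to 1.10 elsewhere. All 3 measured root markers of a list of 9 were highest there too: their mean log2 value was 7.35 and 6.997, against 6.24 to 6.52. By genotype the root marker mean ranged from 6.24 to 7.35 in esd7-1 and from 6.29 to 6.997 in Ler, and that of 3 measured shoot markers of 7 from 10.06 to 10.37 and from 10.19 to 10.35. Of these shoot markers, RCA and PSAN lay at percentiles 99.97 and 99.8 of all probe sets and TRY at 39.2. Their narrow range does not show that shoot content was constant. The part of these differences between arrays in the receptor values was not tested. In whole seedlings, fewer cells of a type and less RNA per cell cannot be told apart.

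GID1A was lowest of all arrays on esd7-1 replicate 3 and highest on Ler replicate 2, so the 2 arrays with high control RNA marked the ends of its range. Between them it differed by -1.14 on the log2 scale, and among the other 4 arrays by -0.33. On those 4 arrays alone the unadjusted limma p was 0.0341 and the adjusted p was 0.582. These 2 arrays are 1 of each genotype, so a model term for them cannot move the difference. With that term the adjusted p of GID1A in limma was 0.311. That model called 4 of 22746 probe sets (0.0176%), and neither receptor was among them. GID1B was highest on both of these arrays, as were 3123 probe sets (13.7%), and averaged 0.51 above its mean on the other 4.

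GID1C divided the arrays by replicate number 1. Both replicates 1 read 4.75 and the other 4 arrays between 5.18 and 5.47, a mean log2 difference of -0.55, larger in size than the genotype difference of GID1C. The 25S ribosomal RNA control read 8.99 and 9.66 on the same 2 arrays, against 4.69 to 5.77 on the rest. Of all probe sets, 1756 (7.72%) were lower on both of these arrays than on every other. Within the pair of replicates 1 the GID1C genotype difference was 0.00, and among the other 4 arrays it was 0.16. With a term for the 2 arrays the standard error of GID1C fell from 0.22 to 0.11, and the 95% interval of its genotype difference ran from -0.16 to 0.38. The term marks the 2 arrays on which GID1C was lowest, so the narrower interval follows from its profile. For GID1A the same term took the standard error from 0.179 to 0.187. The adjusted p of GID1C in limma was then 0.859. GID1A differed by -0.31 between the replicates 1 and by -0.75 among the other 4 arrays.

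**Figure D2:**
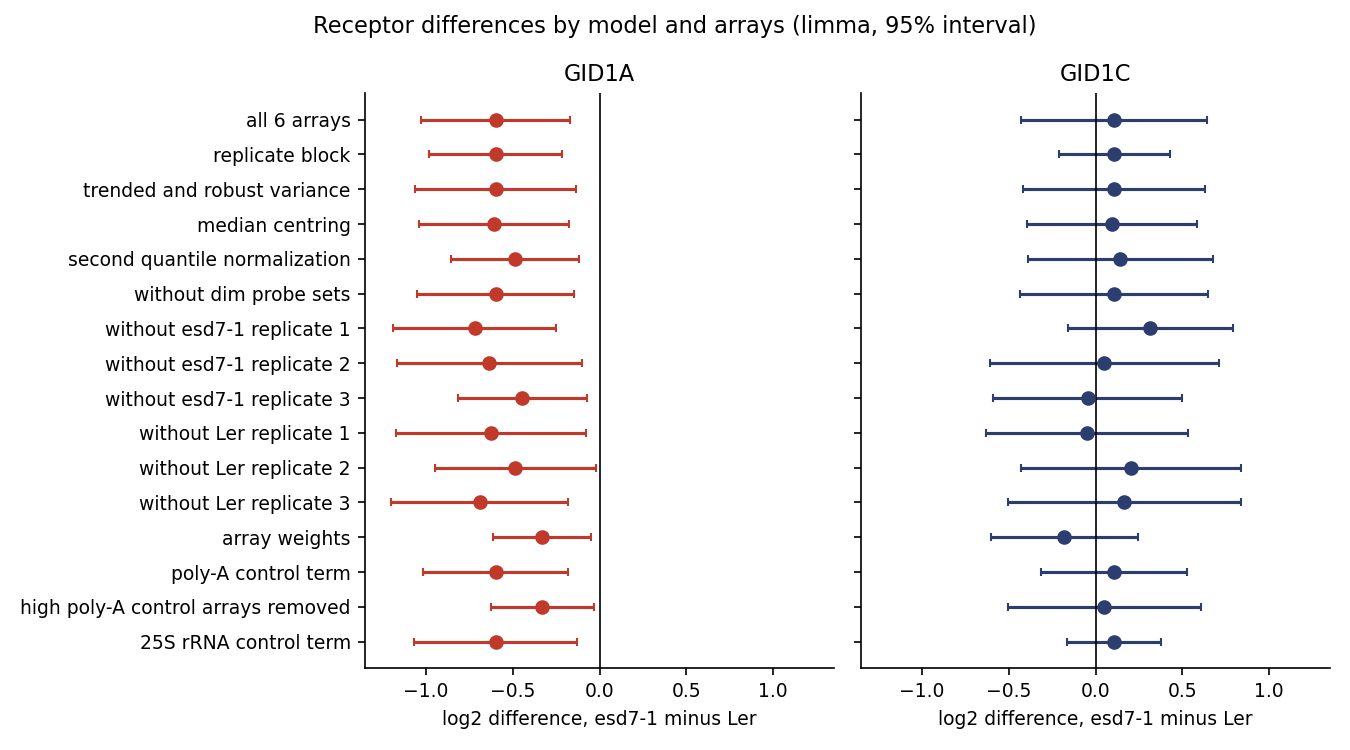
Log2 difference, esd7-1 minus Ler (horizontal axis), of GID1A (left) and GID1C (right) with its unadjusted 95% limma interval, for all 6 arrays and for each other model or selection of arrays (rows). GID1A ranges from -0.72 to -0.33 and GID1C from -0.18 to 0.32; the model terms and the replicate block change the interval but not the difference.

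The other measured genes of gibberellin signalling were read next, from lists matched by locus. Of 63 genes in the gibberellin lists, 15 had a probe set that named them alone. None of the 15 passed limma over all probe sets. Besides the 2 receptors there were 13, of which 10 read lower in esd7-1 and 3 higher. Their median log2 difference was -0.15, against 0.01 over all 22746 probe sets, of which 48.0% read lower. Over all 15 genes the median was also -0.15, but -0.08 without Ler replicate 2 and -0.28 without dim probe sets. Of these 13, 1 had mutant values that were all below the wild type and 0 had values all above, where the shares over all probe sets were 5.69% and 5.64%. The DELLA genes and the enzymes of gibberellin synthesis and inactivation were not analysed here.

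Genes that act on DELLA proteins included SPY, an O-fucosyltransferase that modifies DELLA proteins and restrains gibberellin responses. SPY read 6.39, 6.77 and 5.95 on the esd7-1 arrays and 6.82, 7.04 and 6.76 on the Ler arrays. Its genotypes overlapped by 1 mutant array, replicate 2, which lay just above the lowest wild-type array. SPY differed by -0.50 ± 0.21 (limma SE) on the log2 scale, and limma gave an adjusted p of 0.846. SEC, the related O-GlcNAc transferase, read 6.66, 7.04 and 6.60 in esd7-1 and 6.88, 7.34 and 7.14 in Ler, a log2 difference of -0.35. SLY1, the F-box protein that delivers DELLA proteins for degradation, differed by -0.15, and its relative SLY2 (SNEEZY) by -0.003. SLY2 was dim, with a mean level at percentile 20.3 of all probe sets, so a difference there would be hard to see.

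SPY and SEC had their extremes on the same arrays as GID1A: all 3 genes were lowest on esd7-1 replicate 3 and highest on Ler replicate 2. Between those arrays SPY differed by -1.09 and SEC by -0.74, and among the other 4 arrays by -0.21 and -0.16. SLY1 differed by -0.40 between those arrays and by -0.03 among the other 4. XERICO, a RING-H2 gene that DELLA proteins activate, differed by -0.21 over all arrays, by -0.65 between those arrays and by 0.01 among the other 4. These genes, GID1A included, had their lowest and highest values on the 2 arrays with high control RNA. SLY1 shared its lowest value with esd7-1 replicate 1. The share of all probe sets with these extremes was not counted, so the shared arrays cannot be read as particular to these genes. A larger difference between those 2 arrays than among the rest follows from where the extremes lie. Whether the sizes differ, or are linked to the control RNA, was not tested.

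EXPA8, an expansin of the cell wall, had another profile. It read 8.97, 8.89 and 9.60 in esd7-1 and 9.50, 9.60 and 9.41 in Ler, so esd7-1 replicate 3 equalled the highest wild-type array. Its log2 difference was -0.35 over all arrays (limma adjusted p = 0.846), 0.00 between the 2 arrays with high control RNA and -0.53 among the other 4.

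Of the 14 genes in the list of GASA peptides, a family named for its regulation by gibberellin, 6 were measured and none passed. Of these, 3 read lower and 3 higher, with log2 differences from -0.28 to 0.07. The lowest was AT1G22690, whose mutant mean was 10.42 ± 0.29 and wild-type mean 10.70 ± 0.21 (SD, n = 3), with overlapping arrays. AT2G30810 had all mutant arrays below all wild-type arrays, at 3.25, 3.19 and 3.19 against 3.32, 3.44 and 3.44. Its level lay at percentile 4.94 of all probe sets, near the floor where normalised values are compressed.

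GID1 proteins share their fold with plant carboxylesterases but bind the hormone in place of cleaving a substrate. Of 17 carboxylesterase genes outside the receptors, 12 were measured and none passed, 6 reading lower and 6 higher. Their median log2 difference was -0.02 and their range -0.32 to 0.42. CXE16 differed by -0.16, CXE20 by 0.35 and CXE18 by 0.42. CXE18 read 4.81 on esd7-1 replicate 3 and 3.75 to 3.95 on every other array, and its log2 difference was 0.16 with esd7-1 replicate 3 and Ler replicate 2 left out.

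**Figure D3:**
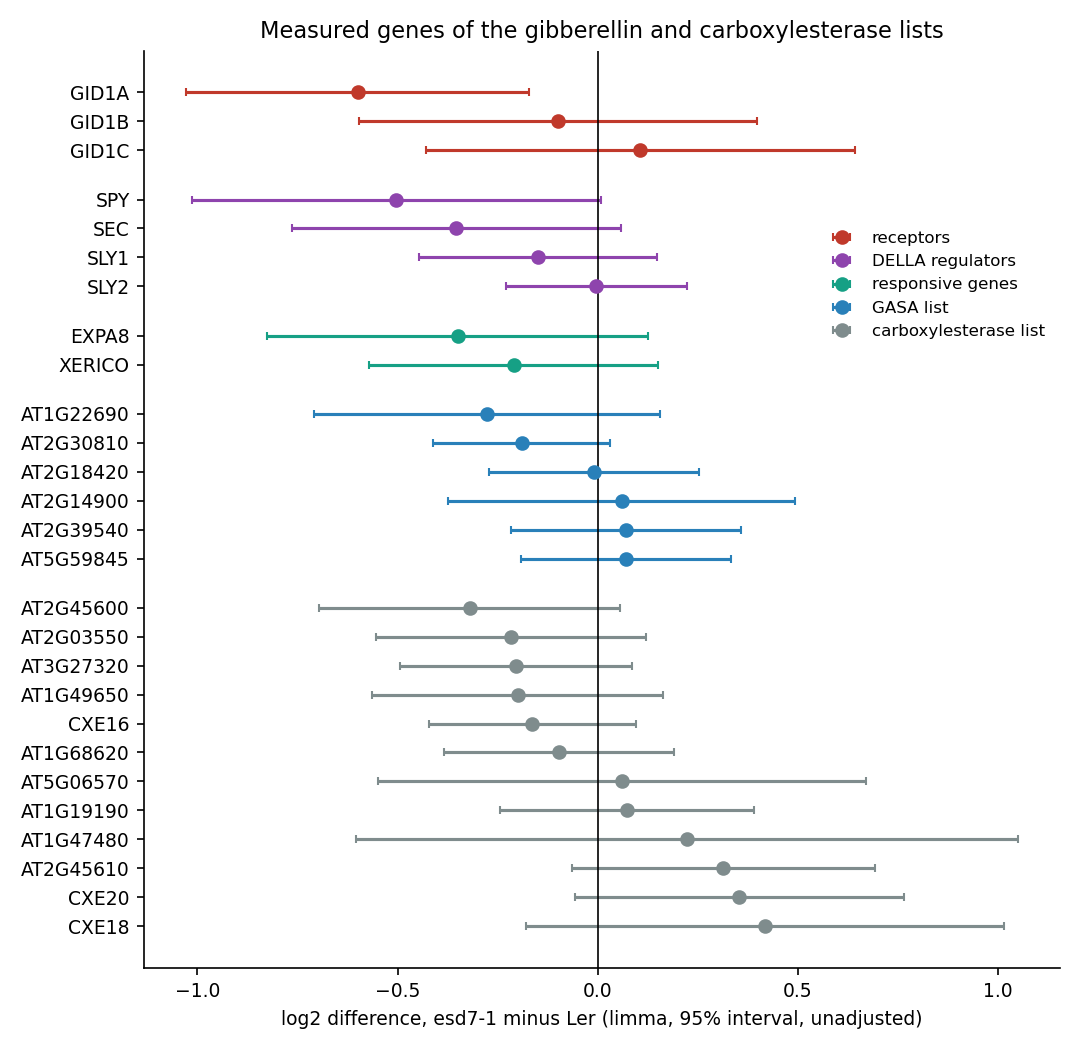
Log2 difference, esd7-1 minus Ler (horizontal axis), with its unadjusted 95% limma interval for each measured gene of the receptor, DELLA regulator, gibberellin-responsive, GASA and carboxylesterase lists (rows, coloured by list). The interval of GID1A, from -1.03 to -0.17, is the 1 interval that lies wholly on a single side of 0. Such an interval equals an unadjusted limma p under 0.05, which 5.78% of all probe sets had, so it does not set GID1A apart. No gene passed after adjustment over all probe sets.

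The loci next to the receptors were read in the same way. The 3 nearest measured loci on each side of GID1A on chromosome 3, in the gene order of assembly TAIR10.1, differed by -0.30 to 0.40 on the log2 scale, 2 reading lower and 4 higher. The adjacent loci AT3G05110 and AT3G05130 read higher in the mutant, by 0.11 and 0.40. Around GID1C on chromosome 5 the 6 differences ran from -0.39 to 0.16, 4 reading lower and 2 higher, and the lowest was that of SFP1, a gene of the sugar porter family. None of the 12 passed limma, and the smallest adjusted p was 0.846. None had an unadjusted p under 0.05 (0 of 12), a count too small to read against the 5.78% of all probe sets.

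Profiles most like those of the receptors were sought among 5994 other probe sets that name 1 gene and vary with an SD of at least 0.2 over the 6 arrays. Pearson's r over 6 arrays was the measure, as a description, and all profiles share the same arrays. The profiles nearest to GID1A were those of AT1G78140 (r = 0.992), AT1G68585 (0.990), AT5G61670 (0.990), AT1G74790 (0.988) and AT4G13220 (0.985). These 5 loci were each lowest on esd7-1 replicate 3 and highest on Ler replicate 2, like GID1A. They were chosen for likeness over these same arrays, so the shared extremes are no separate result. AT4G13220 spanned the widest range of them, from 6.50 on esd7-1 replicate 3 to 7.88 on Ler replicate 2, with a log2 genotype difference of -0.65. AT1G68585 had the smallest genotype difference of the 5, at -0.35, and none of them passed limma. In all, 30 of the 5994 probe sets had r of at least 0.95 with GID1A and 22 had r of -0.95 or lower.

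The profiles nearest to GID1C were those of AT1G09800 (r = 0.986), AT5G18250 (0.984), AT2G25910 (0.983), MBAC1 (0.973) and AT2G29920 (0.966). MBAC1 encodes a mitochondrial carrier of basic amino acids. All 5, chosen for likeness over these same arrays, were lowest on both replicates 1, as GID1C was. Their log2 genotype differences lay between 0.01 and 0.14. MBAC1, for example, read 5.66 and 5.81 on replicates 1 of esd7-1 and Ler and 6.14 to 6.43 on the other arrays. With GID1C, 10 of the 5994 probe sets had r of at least 0.95 and 12 had r of -0.95 or lower.

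**Figure D4:**
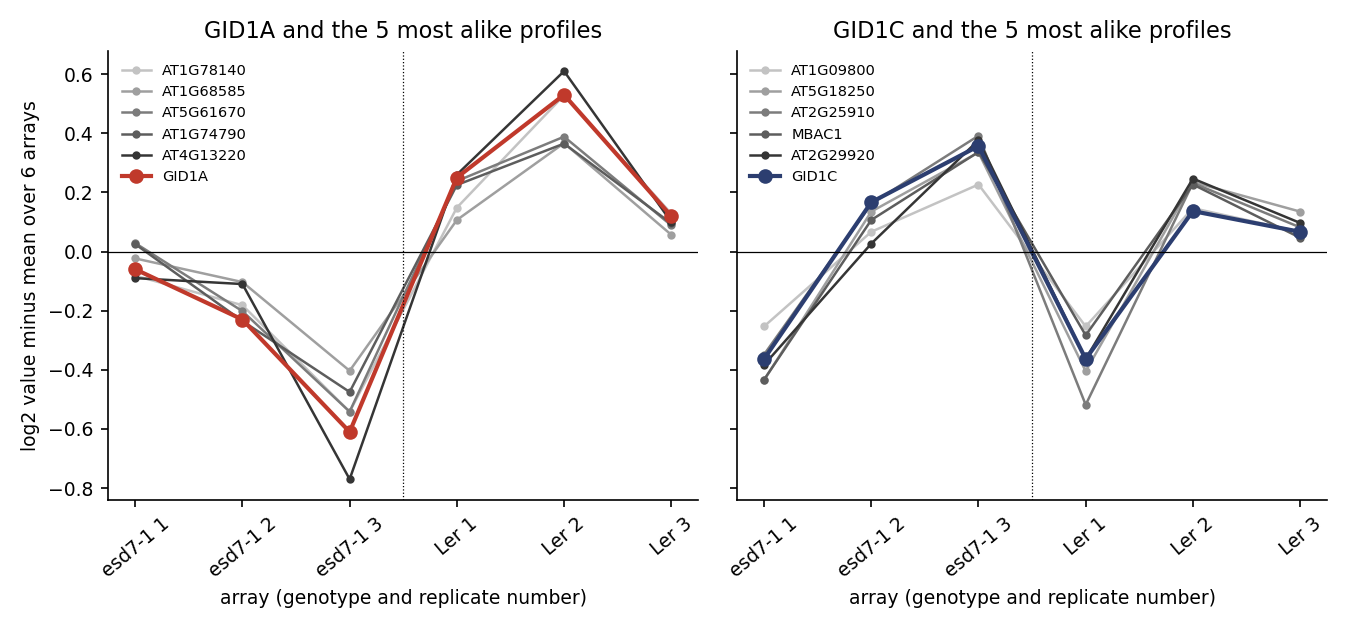
Log2 value minus the mean over 6 arrays (vertical axis) on each array (horizontal axis, genotype and replicate number) for GID1A (left, red) and GID1C (right, blue) and for the 5 genes with the most similar profile (grey). Lines join the values of 1 gene and carry no order; GID1A and its neighbours in profile run from esd7-1 replicate 3 to Ler replicate 2, and GID1C and its own are low on both replicates 1.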

How the data were processed

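Expression in 6 seedling samples was read from the values as deposited, which are on a log2 scale, one per probe set, and rounded to 2 decimals. RMA and limma are named, with no version, in the submitters' processing notes. RMA subtracts background, forces the arrays to 1 distribution and combines probes, so a shift of all transcripts is removed and low values are compressed. Sample titles gave groups and replicate numbers. Of 22810 probe sets, 64 controls stayed out of the tests. The probe table gave 1 gene for 13513 probe sets and several for 503; the remaining 8730 carry no name here. Gene identifiers tied 13436 of the 13513 to the RefSeq gene table of TAIR10.1. Every listed gene measured had 1 probe set.

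The test was limma 3.58.1 under R 4.3.3 (lmFit, eBayes), two-sided, with genotype alone in the model and Benjamini-Hochberg adjustment over all 22746 plant probe sets. Exact permutation tests over arrays used SciPy 1.17.1. The limma step was run on simulated data with independent noise for each probe set. Differences between whole arrays were not simulated, so that run does not cover the array differences seen here. Arrays whose mean over 24 bacterial poly-A control probe sets, or whose 25S rRNA control, exceeded the median of arrays by more than 0.5 were marked for the model terms. Array medians lay between 4.81 and 4.89, and the number of arrays limits precision. The receptors, the lists and these terms were chosen with earlier results of these data known. Genes named are the receptors, measured members of the lists, the 5 nearest profiles of each receptor and the 3 nearest measured loci on each side. The main model did not pair arrays by replicate number. Same-numbered arrays had correlations of 0.54, -0.41 and -0.60 (replicates 1, 2 and 3) between their deviations from genotype means. Whether arrays of the 2 genotypes shared a batch was not tested.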

Additional observations from a re-analysis of the deposited data

How the results depend on the processing

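The GID1A difference did not pass over all probe sets in any of 15 limma alternatives, with adjusted p between 0.216 and 0.998. Its size changed in 10 of them, between -0.72 and -0.33. Since its groups do not overlap, leaving out or weighting arrays could not turn its sign. It was -0.72 to -0.45 with 1 array left out, -0.49 after a second quantile normalization, and -0.33 with array weights or with both arrays of high poly-A control removed. The GID1C difference of 0.11 turned to -0.18 with array weights, where esd7-1 replicate 1, the lowest mutant array at 4.75, had a weight of 3.71. It also turned to -0.045 without esd7-1 replicate 3, the highest mutant array, and to -0.048 without Ler replicate 1, the lowest wild-type array. These turns follow from which arrays were weighted or left out. With 1 array left out the GID1C difference ranged from -0.048 to 0.32, and it passed nowhere. The count of called probe sets was 0, and 33 with array weights, 4 with the poly-A control term, 4 with those arrays removed, and 0 to 1 when arrays were left out singly (1 without esd7-1 replicate 3). Neither receptor was among them. With the replicate number as a block the adjusted p in limma was 0.895 for GID1A and 0.910 for GID1C, and 0 probe sets were called. The GID1A difference minus that of GID1C ranged from -1.04 to -0.40 with 1 array left out, and was -0.15 with array weights. The median over the 15 gibberellin genes was -0.15, -0.28 without dim probe sets, which leaves fewer genes, and -0.18 to -0.08 with 1 array left out. The r between GID1A and GID1C was -0.50 after median centring and -0.51 after a second quantile normalization, 2 alternatives chosen after seeing the data. Low signal limits GID1B, SLY2 and several GASA genes.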
